A study of Mus musculus with 2 samples.

Results

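Toll-like receptors and inflammasome genes were followed through 2 libraries of immune cells sorted from mouse tumours. The set holds 10 of the 47730 features in the deposited count matrices, chosen because their symbol equals Tlr2, Tlr3, Tlr4, Tlr7, Tlr9, Myd88, Nlrp3, Pycard, Casp1 or Casp4. Every one of the 10 was found once.

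Toll-like receptors recognise microbial molecules and molecules released by damaged cells. Tlr2 and Tlr4 sit at the cell surface, whereas Tlr3, Tlr7 and Tlr9 bind nucleic acids in endosomes, and Myd88 is the adaptor through which all of these receptors except Tlr3 signal to NF-kappaB. The inflammasome is a cytosolic platform in which the sensor Nlrp3 recruits the adaptor Pycard (ASC) and the protease Casp1, which matures interleukin-1 beta and interleukin-18. Casp4, the mouse caspase-11, senses cytosolic lipopolysaccharide.

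The mice were of the C57BL6\J strain, all were ovariectomised, and they received placebo or E2 (estradiol, the main ovarian estrogen). Tumours were dissociated, live CD45+ cells were sorted, and 1 library per treatment was made with a droplet-based 3' kit that counts unique molecular identifiers (UMIs). The labels name neither the tumour type nor the dose and length of E2 treatment, and do not say how many mice were pooled. With 1 library per treatment, a difference is between 2 libraries, carries no replicate check and no p-value, and cannot be told apart from a difference between animals, sorts or runs.

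Depth differed, with 24545595 UMIs over 3505 barcodes for placebo and 52628133 UMIs over 5791 barcodes for E2. After removal of low-quality barcodes and probable doublets, 3393 and 5499 cells were kept, with medians of 5090 and 7888 UMIs. The libraries shared 95 barcodes, of which 5 placebo and 6 E2 cells fell among monocyte/macrophage-like cells. Cells were clustered without the 10 genes, and clusters were named from marker genes as 13 classes. Clusters without a name held 7.10% of placebo and 7.77% of E2 cells. Ptprc, which encodes the sorted antigen CD45, was seen in 93.4% and 95.1% of monocyte/macrophage-like cells but in 0% and 8.66% of 20 and 127 fibroblast-like cells. Levels are a gene's UMIs per 1000000 UMIs of the class in that library (CPM), given as placebo then E2. Brackets hold exact 95% intervals, which cover counting error only.

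Promoter windows from RefSeq (GRCm38.p6) were matched for 8 of the 10 genes, as 10 windows of 300 bases running from 250 before to 50 after a start site. The 5 windows below belong to the genes whose levels the results turn on. Capitals mark matches on either strand to an ETS core bound by PU.1 (GAGGAA), a kappaB core (GGANTTTCC), an AP-1 site (TGANTCA), a paired IRF element (GAAANNGAA) or an estrogen response half-site (AGGTCA).
Nlrp3, first start (chr11:59541319-59541618, plus strand): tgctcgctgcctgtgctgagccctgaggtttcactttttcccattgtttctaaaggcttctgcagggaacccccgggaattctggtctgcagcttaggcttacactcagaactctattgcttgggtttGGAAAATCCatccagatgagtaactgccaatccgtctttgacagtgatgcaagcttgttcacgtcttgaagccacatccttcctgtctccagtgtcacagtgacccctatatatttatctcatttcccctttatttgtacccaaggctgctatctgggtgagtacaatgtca
Nlrp3, second start (chr11:59542436-59542735, plus strand): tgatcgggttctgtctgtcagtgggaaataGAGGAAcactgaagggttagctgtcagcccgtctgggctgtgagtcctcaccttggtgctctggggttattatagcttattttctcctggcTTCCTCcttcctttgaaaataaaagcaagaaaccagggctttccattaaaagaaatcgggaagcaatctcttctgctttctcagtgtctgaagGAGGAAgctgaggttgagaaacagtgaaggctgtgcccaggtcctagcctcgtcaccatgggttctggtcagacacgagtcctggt
Tlr2 (chr3:83841559-83841858, minus strand): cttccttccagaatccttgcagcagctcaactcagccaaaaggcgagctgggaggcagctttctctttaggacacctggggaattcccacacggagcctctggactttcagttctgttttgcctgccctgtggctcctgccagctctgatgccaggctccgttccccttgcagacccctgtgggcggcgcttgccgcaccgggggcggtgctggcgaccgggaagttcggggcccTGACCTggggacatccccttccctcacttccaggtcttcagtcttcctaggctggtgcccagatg
Myd88 (chr9:119339969-119340268, minus strand): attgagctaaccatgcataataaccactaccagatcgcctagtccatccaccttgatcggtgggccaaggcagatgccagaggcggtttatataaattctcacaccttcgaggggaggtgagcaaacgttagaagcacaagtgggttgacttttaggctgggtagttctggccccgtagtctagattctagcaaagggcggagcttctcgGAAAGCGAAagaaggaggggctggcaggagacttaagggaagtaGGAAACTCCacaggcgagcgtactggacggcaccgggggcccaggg
Tlr3 (chr8:45410331-45410630, minus strand): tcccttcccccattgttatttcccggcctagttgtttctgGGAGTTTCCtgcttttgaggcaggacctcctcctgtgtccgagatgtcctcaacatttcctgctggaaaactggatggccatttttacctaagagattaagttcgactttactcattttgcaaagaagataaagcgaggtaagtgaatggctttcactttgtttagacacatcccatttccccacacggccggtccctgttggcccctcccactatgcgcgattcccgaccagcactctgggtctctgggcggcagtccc
The kappaB core stood in 3 of the 10 windows of these genes, against 1.25% of 32851 promoters. They were the Tlr3 window, the Myd88 window and the first Nlrp3 window. Only this 9-base form was searched, so kappaB sites of other forms were neither marked nor counted, in these windows or in the other promoters. An unmarked window may therefore still hold such a site. The ETS core, held by 28.3% of all promoters, occurred 3 times in the second Nlrp3 window and was also found for Pycard, Casp1 and Tlr9. The IRF pair stood in the Myd88 window alone among the 10 (8.56% of all promoters) and the AP-1 site in that of Tlr9 alone (7.81%). The estrogen response half-site, present in 16.3% of all promoters, matched the Tlr2 and Tlr9 windows. A match describes letters and is not a measured binding site. On mm10, which is GRCm38, Nlrp3 spans chr11:59541568-59566956 on the plus strand, Tlr2 chr3:83836272-83841767 on the minus strand, Myd88 chr9:119335934-119341411 on the minus strand and Tlr3 chr8:45395665-45411080 on the minus strand. Exons of Tlr3, Myd88 and Pycard overlap opposite-strand exons of Gm45542, Acaa1a and Gm45205 in GENCODE M21, and no member overlaps an exon on its own strand. The labels do not say whether strand was used in counting.

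Tlr3 and Tlr7 were highest in dendritic cell classes. Tlr3, the endosomal receptor for double-stranded RNA, was at 221 CPM in placebo and 213 CPM in E2 cDC1-like cells, the cross-presenting dendritic cells marked by Xcr1 and Clec9a. In every other named class it stayed at or under 19.4 CPM, the level given by 4 UMIs in E2 B-like cells. No Tlr3 UMI was found in neutrophil-like cells, where the limit of 3 counts set for a count of 0 is 4.83 and 1.67 CPM and the exact upper limits are 5.94 and 2.05 CPM. cDC1-like cells were 1.68% of placebo and 4.55% of E2 cells but supplied 76.7% [71.0, 81.7] and 68.7% [66.0, 71.3] of all Tlr3 UMIs. A further 14.4% and 24.1% came from clusters without a name, chiefly a cycling cluster of mixed myeloid cells at 57.2 and 68.9 CPM. Of the cells there that passed a marker gate, 37.2% passed that of cDC1, the most common one. In that cluster 7 of the 9 cDC1 markers were raised, so part of these UMIs may belong to cycling cDC1-like cells, which was not tested.

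Tlr7, which binds single-stranded RNA, was highest in pDC-like cells, the plasmacytoid dendritic cells known for type I interferon output. Its level there was 169 CPM in 26 placebo cells and 121 CPM in 75 E2 cells. Monocyte/macrophage-like cells followed at 29.2 and 35.7 CPM, and through their number supplied 81.9% and 86.7% of all Tlr7 UMIs. Tlr7 was absent or nearly so from cDC1-like and CCR7 mature DC-like cells, with 0 UMIs in both libraries. Tlr9, the receptor for unmethylated DNA, gave 27 and 77 UMIs in all kept cells. Its highest levels were 8.24 and 5.56 CPM in pDC-like cells and 7.45 CPM in placebo B-like cells, too few UMIs for an order among classes.

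The surface receptors had another order. Tlr2, which senses bacterial lipoproteins, was highest in neutrophil-like cells at 562 and 300.2 CPM, then in monocyte/macrophage-like cells at 312 and 237 CPM. cDC2-like cells followed at 71.5 and 79.7 CPM and cDC1-like cells at 14.6 and 10.6 CPM. The remaining 9 classes lay at or under 13.4 CPM, and the neutrophil-like value of the E2 library fell below the monocyte/macrophage-like value of the placebo library, so the order of the leading pair held within each library and not across them. Tlr4, the lipopolysaccharide receptor, showed the same leading pair at 67.6 and 67.8 CPM in neutrophil-like cells and 24.2 and 20.6 CPM in monocyte/macrophage-like cells. The classes after these could not be ranked, since in the placebo library fibroblast-like (8.35 CPM on 2 UMIs), NK-like (6.26 CPM), cDC1-like (5.61 CPM) and cDC2-like cells (4.95 CPM) had overlapping intervals. Myd88 was broad, with every class between 15.9 and 238 CPM. Neutrophil-like cells led in both libraries, at 238 and 145 CPM.

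**Figure D1:**
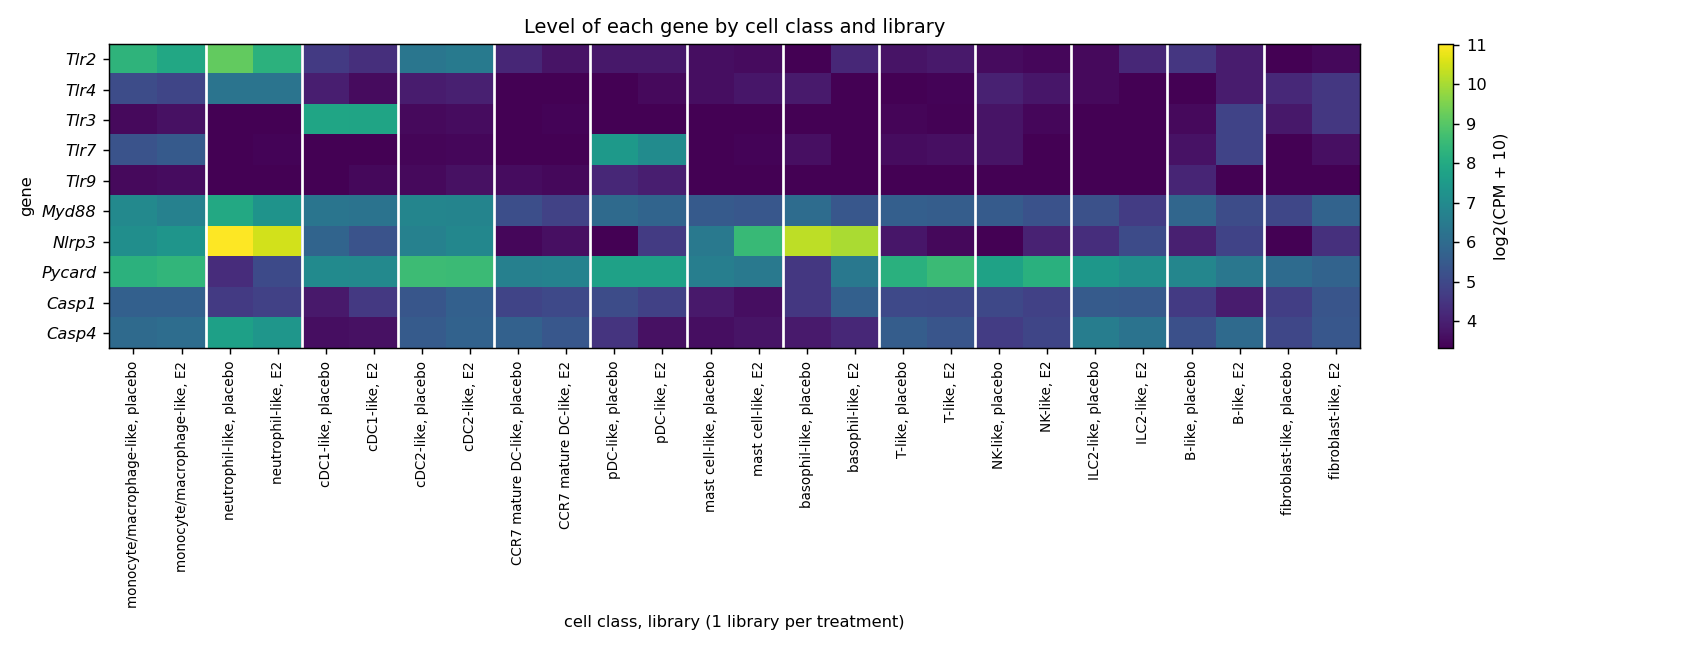
Heat map of the 10 genes (rows) over 13 cell classes and 2 libraries (columns), coloured by log2(CPM + 10). Tlr3 stands out in cDC1-like columns, Tlr7 in pDC-like columns, and Nlrp3 in neutrophil-like and basophil-like columns. Pycard is dark in the neutrophil-like columns and the placebo basophil-like column.

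Nlrp3 and its partner Pycard were highest in different classes. Nlrp3, the sensor, reached 2058 and 1429 CPM in neutrophil-like cells and 1200.3 and 1037 CPM in basophil-like cells, of which there were 109 and 30. Monocyte/macrophage-like cells lay at 129.6 and 150.1 CPM, cDC2-like cells at 93.4 and 107 CPM and cDC1-like cells at 46.0 and 28.9 CPM. Mast cell-like cells lay at 76.3 CPM in the placebo and 351 CPM in the E2 library, so their place in the order differed between the libraries. T-like cells (3.70 and 1.28 CPM) and CCR7 mature DC-like cells (0.953 and 2.56 CPM) were at the low end.

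Pycard, the adaptor that links sensor and caspase, was at its lowest where Nlrp3 was at its highest. It was at 9.66 CPM (6 UMIs) and 23.4 CPM (42 UMIs) in neutrophil-like cells and 13.9 and 74.1 CPM in basophil-like cells. The highest levels were in cDC2-like cells (374 and 369 CPM), T-like cells (286 and 365 CPM) and monocyte/macrophage-like cells (299.9 and 322 CPM). cDC2-like cells led in both libraries, and T-like and monocyte/macrophage-like cells changed places behind them. NK-like cells (205 and 288 CPM) and pDC-like cells (202 in both) followed. Over 26 points, 13 classes in each of 2 libraries, Pearson's r between the log2 levels of Nlrp3 and Pycard was -0.515. The points share libraries, and the value is a description only.

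With all cells thinned to 2000 UMIs, Nlrp3 was seen in 78.3% of 184 placebo and 76.0% of 499 E2 neutrophil-like cells (78.5% and 81.3% unthinned). Pycard was seen in 2.17% and 4.61% of the same cells. In the T-like class, Pycard was seen in 35.1% of 1033 and 41.1% of 829 thinned cells (59.2% and 61.1% unthinned). Nlrp3 was seen in 0.290% and 0.121% of those T-like cells (0.916% and 0.441% unthinned), which have median depths of 4450 and 4141 UMIs against 2362 and 3087 in neutrophil-like cells. Neutrophil-like cells thus combined frequent Nlrp3 with rare Pycard, and T-like cells the opposite. Thinning left out 81 and 42 neutrophil-like cells and 59 and 78 T-like cells.

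Casp1, the effector protease, was low in all classes. It was highest in monocyte/macrophage-like cells (41.3 and 41.6 CPM), ILC2-like cells (35.8 and 34.4 CPM) and cDC2-like cells (31.8 and 41.5 CPM), and lowest in mast cell-like cells (4.36 and 2.23 CPM). UMIs of Nlrp3, Pycard and Casp1 in the same cell were found in 14.9% and 18.2% of monocyte/macrophage-like cells and 15.1% and 19.7% of cDC2-like cells at full depth. No placebo neutrophil-like cell and 0.185% of E2 neutrophil-like cells held all 3. After thinning, 8 of 912 and 12 of 2145 monocyte/macrophage-like cells did (0.877% [0.379, 1.72] and 0.559% [0.289, 0.975]), against 0 of 184 and 0 of 499 neutrophil-like cells, for which the limit of 3 counts is 1.63% and 0.601% and the exact upper limit 1.98% and 0.737%. At equal depth the intervals of these 2 classes overlapped in each library. Thinning left so few cells with all 3 genes that this comparison cannot decide whether the classes differ, and no test was run. Casp4 was highest in neutrophil-like cells (198 and 153 CPM), followed by ILC2-like cells (86.0 and 66.1 CPM) and monocyte/macrophage-like cells (52.7 and 56.8 CPM). The ILC2-like cluster was named from its leading genes. Of its cells that passed a marker gate, 52.5% passed that of ILC2. The T cell gene Cd3e was at 91.7 and 79.3 CPM there, against 326 and 244 CPM in T-like cells, so ILC2-like levels may mix cell types.

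**Figure D2:**
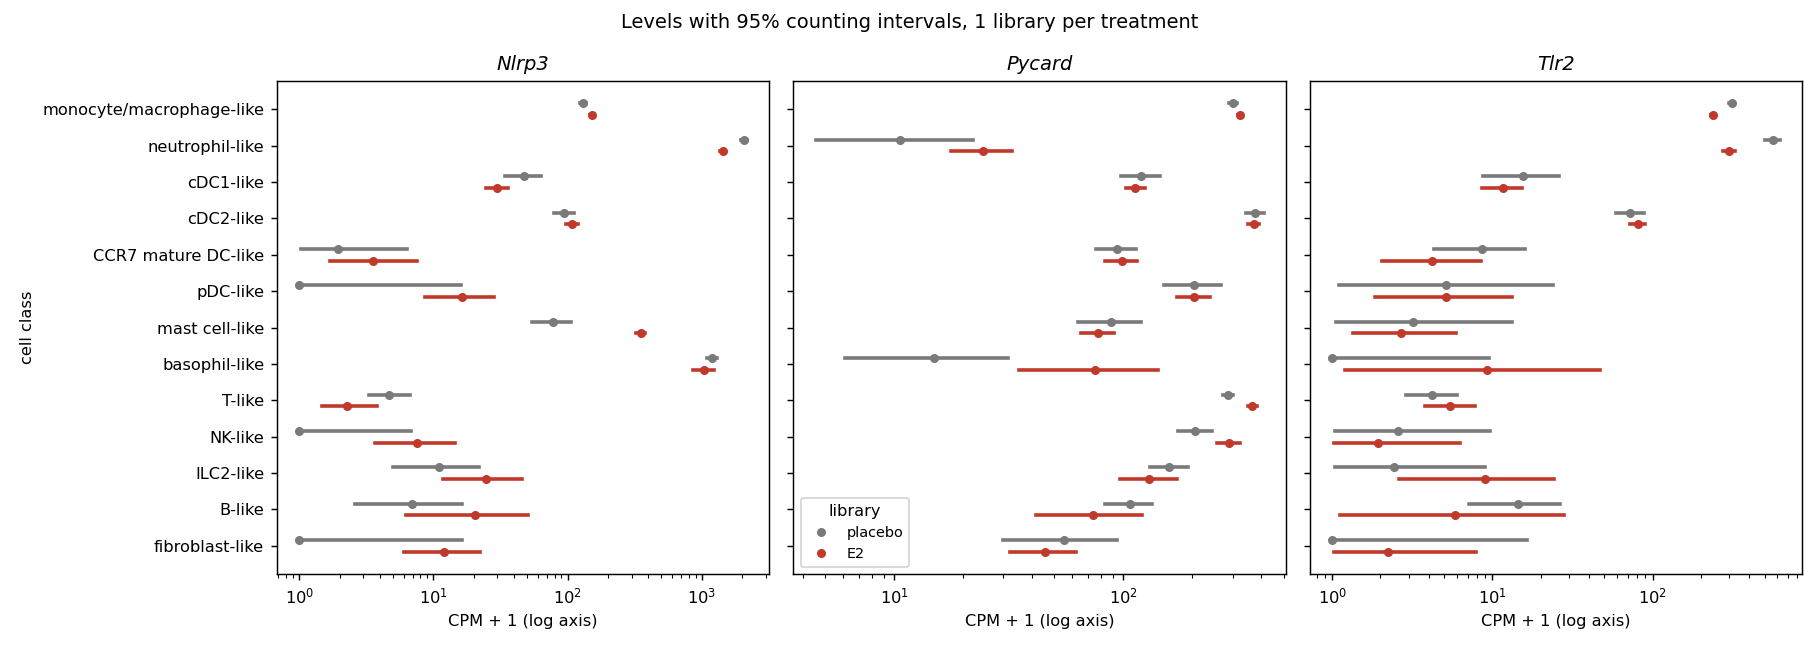
Levels of Nlrp3, Pycard and Tlr2 by cell class as CPM + 1 on a log axis, with exact 95% counting intervals, so that a level of 0 is drawn at 1. Grey points are the placebo library and red points the E2 library; neutrophil-like cells sit at the right for Nlrp3 (2058 and 1429 CPM) and at the left for Pycard (9.66 and 23.4 CPM).

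The genes most like each member over the same 26 points were found by Pearson's r of log2 levels. Tlr3 was closest to Snx22 (0.988), Xcr1 (0.985), the cDC1 chemokine receptor, and Gramd2 (0.970). Tlr2 was closest to Mefv (0.964), which encodes the inflammasome sensor pyrin, Clec4n (0.964), a C-type lectin receptor, and Sirpb1c (0.960). Tlr4 was closest to Trem1 (0.945), an activating myeloid receptor, Cd300ld (0.944) and Trem3 (0.935). Nlrp3 was closest to Ifitm5 (0.943), Ampd3 (0.901) and Ier3 (0.898), and Myd88 to Picalm (0.904), RP23-264H19.2 (0.892) and Cd14 (0.891). Tlr7 was closest to Zfp658 (0.888), Lair1 (0.875) and Tenm4 (0.865), and Tlr9, on few UMIs, to Epha2 (0.893), Hpse (0.891) and Zdhhc14 (0.882). The remaining inflammasome genes had looser neighbours, with Bola2 (0.874), Ndufb7 (0.873) and Atp5h (0.853) for Pycard, Il1r2 (0.816), Ralgds (0.798) and Ets2 (0.786) for Casp4, and Degs1 (0.741), Eno1 (0.703) and Tmem176b (0.669) for Casp1.

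The study's contrast, E2 against placebo, was read in 9 classes, those for which both libraries had 50 cells or more. A gene was counted as higher or lower when its CPM differed by at least 1.5-fold with at least 30 UMIs over both libraries. CPM values of a class have a fixed sum, so a level is a share of the RNA seen and not an amount per cell.

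In all kept cells pooled, Tlr3 was the member that differed most, at 11.0 CPM with placebo and 24.7 CPM with E2 (a ratio of 2.24 [1.96, 2.58]). Within cDC1-like cells its level was 221 and 213 CPM (ratio 0.966 [0.826, 1.13]), and the 2 libraries were alike in the thinned share of cells with a UMI, at 38.2% [25.4, 52.3] and 33.5% [27.5, 39.8] (78.9% and 86.0% unthinned). Beside the pooled values, the share of cDC1-like cells was 1.68% and 4.55%. Clusters without a name, among them the cycling one with raised cDC1 markers, gave 37 and 291 of the 257 and 1206 Tlr3 UMIs. The part of each in the pooled difference was not tested. Fewer cells of a type and less RNA per cell can be separated here only as far as the class names hold.

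In monocyte/macrophage-like cells (975 and 2221 cells in 7 clusters), the interval of the ratio lay above 1 for 4 of the 10 members and below 1 for 2. Of 10 members tested, 1 was higher, against 5.96% of 12234 genes, and 0 were lower, against 8.03%. Both shares lay near the background, and nothing is read from the counts. The 1 higher member was Tlr3 at 1.40 CPM (13 UMIs) and 2.70 CPM (61 UMIs), a ratio of 1.94 [1.05, 3.84]. The cDC1 markers summed to 530.5 and 534 CPM in the same cells. That sum is not particular to cDC1 RNA. The same list gave 515 and 349 CPM in T-like, 857 and 531 CPM in NK-like and 98.2 and 87.3 CPM in neutrophil-like cells. The part of other cells' RNA in the Tlr3 UMIs was not tested. Tlr2 was at 312 and 237 CPM (1.31-fold lower [1.26, 1.38]) and Myd88 at 113 and 93.1 CPM (1.22-fold lower [1.13, 1.31]). Nlrp3 was at 129.6 and 150.1 CPM (1.16-fold higher [1.08, 1.24]), Tlr7 at 29.2 and 35.7 CPM (1.22-fold higher [1.06, 1.41]) and Pycard at 299.9 and 322 CPM (1.07-fold higher [1.03, 1.12]). For Tlr4, Tlr9, Casp1 and Casp4 the interval of the ratio held 1. Median log2 ratios were 0.08 over the 10 members and -0.044 over all genes tested.

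Those class values mixed clusters that differed in size between the libraries. The largest cluster was led by Arg1 and Ccl24 in the placebo library (284 of 975 cells) and by Apoe and Itgb5 in the E2 library (618 of 2221). The Arg1 cluster took its name from the marker gates, which 80.6% of its cells passed, 90.5% of them that of monocyte/macrophage. Only 3 of the 18 monocyte/macrophage markers were raised in it, none among its leading genes, and its best-scoring marker list was that of cDC2. Its place in the class is thus less sure. In the Arg1 cluster Tlr2 was at 403 and 248 CPM (1.63-fold lower [1.48, 1.79]), whereas it was at 326 and 311 CPM in the Apoe cluster and at 358 and 322 CPM in the cluster led by Chil3, which holds Ly6c2, the marker of classical monocytes. Without the Arg1 cluster the log2 ratio of Tlr2 over the class was -0.19 in place of -0.38. Nlrp3 was higher in the E2 library in the Apoe cluster (132 and 199 CPM, ratio 1.52 [1.33, 1.73]), the Ccl8 and Pf4 macrophage cluster (56.8 and 97.3 CPM, ratio 1.71 [1.25, 2.41]) and the Ace cluster of non-classical monocyte genes (91.3 and 137 CPM, interval of the ratio 1.08 to 2.12). It was lower in the Lyz1 and Retnla cluster (77.5 and 54.1 CPM, ratio 0.698 [0.519, 0.948]). Nlrp3 thus lay on opposite sides of its placebo level in different clusters of the class.

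Tlr7 marked particular monocyte and macrophage clusters in both libraries. It was highest in the Ace cluster (70.4 and 97.4 CPM) and the Ccl8 and Pf4 cluster (59.4 and 63.8 CPM), and lowest in the Lyz1 and Retnla cluster (4.69 and 6.17 CPM). In each of the 6 clusters with at least 30 cells per library, the interval of its ratio held 1. Tlr4 differed in the Ccl8 and Pf4 cluster, at 44.9 and 21.4 CPM (2.10-fold lower [1.37, 3.17]). Myd88 differed most in the Ace cluster, at 183 and 83.0 CPM (2.20-fold lower [1.64, 2.95]).

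**Figure D3:**
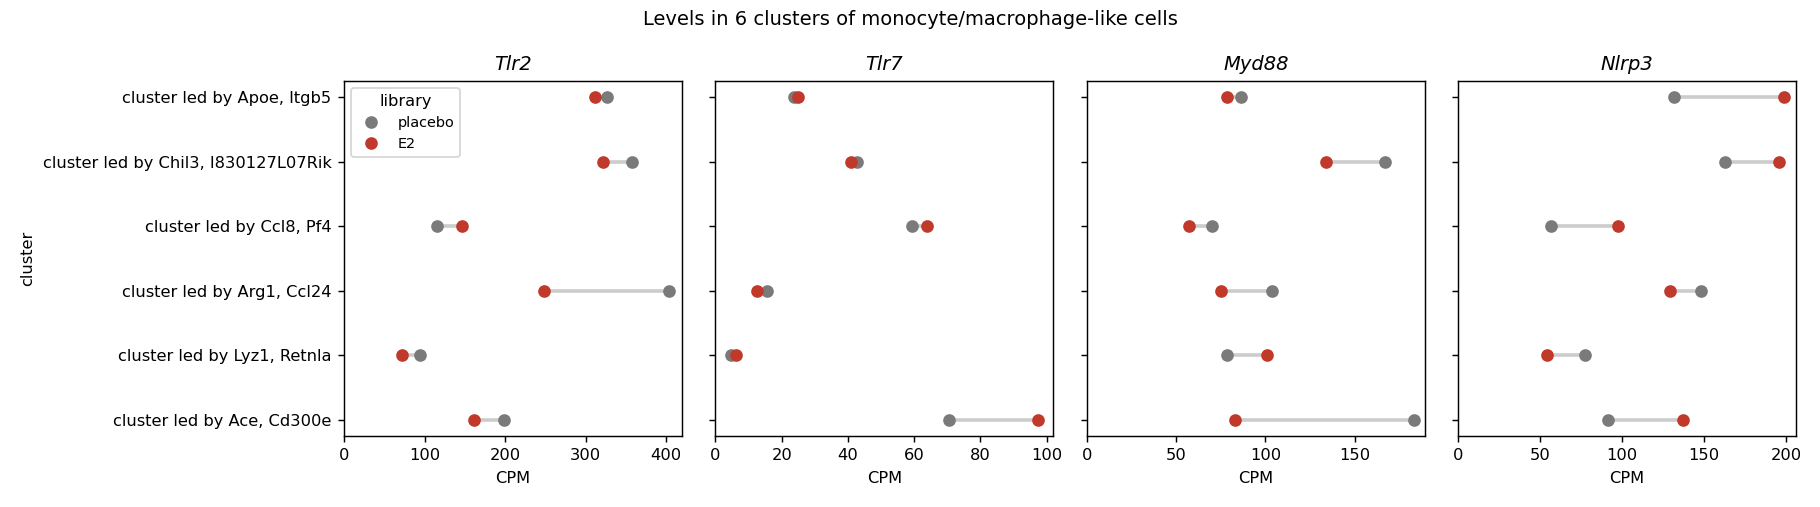
CPM of Tlr2, Tlr7, Myd88 and Nlrp3 in the 6 monocyte/macrophage-like clusters with at least 30 cells per library, named by leading genes; grey points are placebo, red points E2 and grey bars join them. Tlr2 is furthest apart in the cluster led by Arg1 (403 and 248 CPM) and Myd88 in the cluster led by Ace (183 and 83.0 CPM).

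In neutrophil-like cells (265 and 541 cells), the interval of the ratio lay below 1 for 4 of the 10 members and above 1 for 1. Of 7 members tested, 2 were lower, against 19.9% of 4973 genes, and 1 was higher, against 15.2%. Tlr2 was at 562 CPM (349 UMIs) and 300.2 CPM (540 UMIs), 1.87-fold lower [1.63, 2.15], and Myd88 at 238 CPM (148 UMIs) and 145 CPM (261 UMIs), 1.64-fold lower [1.33, 2.02]. Nlrp3 was at 2058 and 1429 CPM (1.44-fold lower [1.35, 1.54]) and Casp4 at 198 and 153 CPM (1.30-fold lower [1.04, 1.61]). The thinned share of cells with an Nlrp3 UMI was alike, at 78.3% [71.6, 84.0] and 76.0% [72.0, 79.6]. Casp1 was at 14.5 and 18.3 CPM (ratio 1.27 [0.593, 3.01]). Tlr4 was at 67.6 and 67.8 CPM, so the 2 surface receptors differed, the interval of the ratio running from 0.466 to 0.613 for Tlr2 and from 0.701 to 1.46 for Tlr4. Pycard was the higher member at 9.66 and 23.4 CPM (ratio 2.42 [1.02, 6.96]), beside monocyte/macrophage markers that summed to 1381 and 1992 CPM in these cells. Their part in the Pycard value was not tested. Both shares lay near the background, and nothing is read from the counts.

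Finer clusters of the same neutrophil-like cells, from a second clustering at resolution 2, separated Nlrp3 from Tlr2 and Myd88. A cluster led by Irg1 and Il1f9 held 161 of the 265 placebo and 100 of the 541 E2 cells and had the highest Nlrp3, at 2551 and 2466 CPM. The cluster led by Retnlg, a gene of mature neutrophils, held 44 and 245 cells with Nlrp3 at 1427 and 1240.0 CPM, and the cluster led by Mmp9 and Cxcr2 held 60 and 196 cells with Nlrp3 at 1158 and 1052 CPM. Within each of the 3, the ratio of Nlrp3 held 1 in its interval, at 0.967 [0.881, 1.06], 0.869 [0.738, 1.03] and 0.908 [0.755, 1.10]. All 3 ratios lay below 1, and the part of the cluster shares in the class-wide ratio was not tested. Myd88 was lower in all 3, at 166 and 86.6 CPM in the Irg1 cluster, 387 and 167 CPM in the Retnlg cluster and 317 and 148 CPM in the Mmp9 cluster, with folds of 1.92 [1.23, 3.06], 2.32 [1.63, 3.26] and 2.15 [1.43, 3.19]. Tlr2 was lower in the Irg1 cluster (694 and 366 CPM, 1.90-fold [1.53, 2.36]) and the Retnlg cluster (619 and 323 CPM, 1.91-fold [1.46, 2.48]) but higher in the Mmp9 cluster (111 and 215 CPM, ratio 1.93 [1.10, 3.65]). The 12 neutrophil markers summed to 106462 and 170924 CPM over the class, with S100a9 alone at 48659 and 76916 CPM. The part of the makeup of the class in these ratios was not tested.

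**Figure D4:**
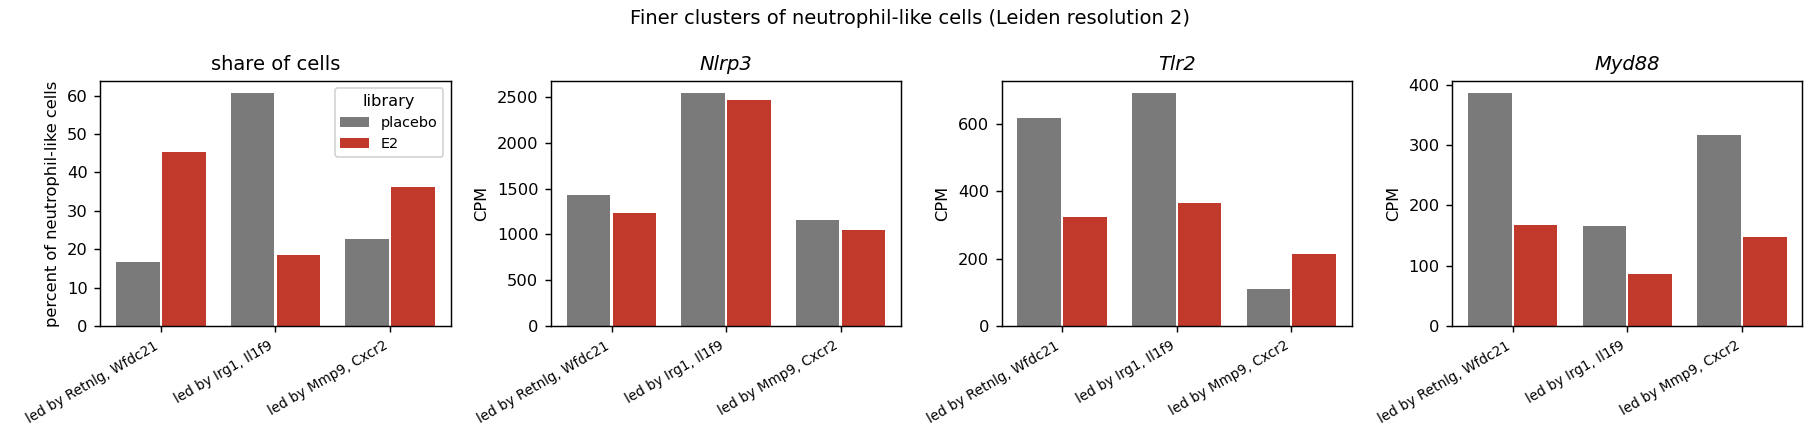
Share of neutrophil-like cells (percent) and CPM of Nlrp3, Tlr2 and Myd88 in 3 finer neutrophil-like clusters, with grey bars for placebo and red bars for E2. Nlrp3 bars are of near-equal height within each cluster (2551 and 2466 CPM in the cluster led by Irg1), whereas Myd88 is lower in E2 in all 3.

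Mast cell-like cells (61 and 227 cells) had the largest ratio among members with at least 30 UMIs in the 9 classes compared. Nlrp3 was at 76.3 CPM (35 UMIs) under placebo and 351 CPM (628 UMIs) under E2, 4.60-fold higher [3.27, 6.66]. It was seen in 13.7% [5.70, 26.3] of 51 and 42.5% [35.4, 49.8] of 193 thinned cells (31.1% and 67.8% unthinned), and the class medians of 7208 and 7665 UMIs per cell were close. The cell with the most Nlrp3 held 14.3% and 3.66% of the class's Nlrp3 UMIs. Of the 12 neutrophil markers, 1 and 5 were seen in mast cell-like cells, and they summed to 2.18 and 24.0 CPM. The 7 basophil markers summed to 2679 and 2213 CPM and the 9 mast cell markers to 157010.3 and 152430.3 CPM, both slightly higher in the placebo library. The part of other cells' RNA and of the makeup of the class in the Nlrp3 values was not tested. Over 9 alternative settings the log2 ratio ran from 1.93 to 2.19.

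Other members did not follow Nlrp3 in mast cell-like cells. Of 3 members tested, 1 was higher, against 12.1% of 6948 genes, and 0 were lower, against 12.4%. Pycard was at 87.3 and 76.5 CPM (ratio 0.877 [0.613, 1.28]) and Myd88 at 34.9 and 32.4 CPM (ratio 0.928 [0.527, 1.73]). Tlr2, Tlr4, Casp1 and Casp4 each gave 8 or fewer UMIs over both libraries, and Tlr3 and Tlr9 gave 0. Of 64 pathway list genes tested there, 13 were higher and 3 lower. The lower ones were Chuk (45.8 and 29.6 CPM), Nfkb2 (50.2 and 31.8 CPM) and Sigirr (34.9 and 11.2 CPM). The higher ones, named like these after their values were seen, included the chemokine Cxcl2 at 8.73 and 116 CPM (4 and 207 UMIs, ratio 13.3 [5.10, 49.1]), the DNA sensor Aim2 at 8.73 and 32.4 CPM (ratio 3.71 [1.37, 14.1]) and the cytokine signalling inhibitor Socs1 at 80.7 and 156 CPM (ratio 1.94 [1.37, 2.81]). The cytokine gene Tnf was at 423 and 408 CPM (ratio 0.964 [0.821, 1.13]).

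In cDC1-like cells (57 and 250 cells), 1 of 6 members tested was higher, against 7.45% of 8052 genes, and 1 was lower, against 11.9%. Casp1 was at 4.48 CPM (4 UMIs) and 14.4 CPM (56 UMIs), a ratio of 3.22 [1.19, 12.2], beside monocyte/macrophage markers that summed to 799 and 1117 CPM there. Nlrp3 was at 46.0 and 28.9 CPM (1.59-fold lower [1.09, 2.30]), but 12 of its 41 placebo UMIs came from 1 cell that also held 521 UMIs of neutrophil markers, 97.4% of those in the class. Without that cell Nlrp3 was at 33.8 and 28.9 CPM (ratio 0.854), no longer past 1.5-fold, while Casp1 was still past it (ratio 4.13). Pycard (118 and 112 CPM) and Myd88 (69.5 and 66.0 CPM) had intervals that held 1.

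**Figure D5:**
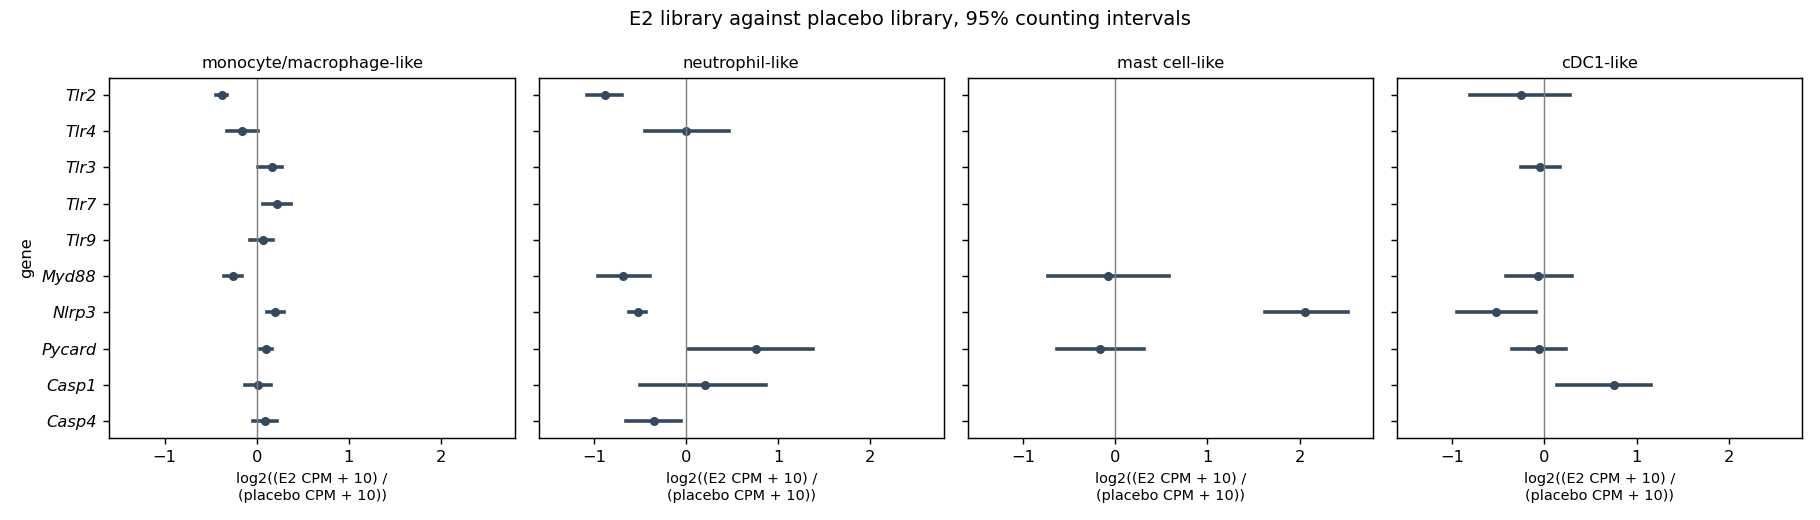
Log2 of (E2 CPM + 10) over (placebo CPM + 10) for members with at least 30 UMIs in 4 classes; points are the ratios and lines exact 95% counting intervals. Nlrp3 lies at 2.06 in mast cell-like cells and at -0.52 in neutrophil-like cells, and members of monocyte/macrophage-like cells lie between -0.38 and 0.22.

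In the other 5 classes compared, no member tested was higher and 1 was lower. cDC2-like cells had 0 of 7 members past the fold (6.65% of 8756 genes higher and 10.5% lower), with Pycard at 374 and 369 CPM. CCR7 mature DC-like cells had 0 of 4 (5.47% of 6603 genes higher and 12.0% lower). T-like cells had 0 of 5 (3.25% of 10833 genes higher and 8.08% lower) and NK-like cells 0 of 4 (7.88% of 6131 genes higher and 18.3% lower). B-like cells had 0 of 2 higher (7.18% of 4427 genes) and 1 of 2 lower (26.4%). That gene was Myd88, at 47.7 CPM (32 UMIs) and 24.3 CPM (5 UMIs), a ratio of 0.510 [0.155, 1.32] whose interval held 1. The median log2 CPM ratio over the genes tested was -0.106 in cDC2-like, -0.107 in CCR7 mature DC-like, -0.111 in T-like, -0.130 in NK-like and -0.201 in B-like cells, so that scaling to it raises every ratio of the class.

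Pycard did not pass 1.5-fold in any lymphoid class. In T-like cells it was at 286 CPM (1626 UMIs) and 365 CPM (1716 UMIs), a ratio of 1.28 [1.19, 1.37], and in NK-like cells at 205 and 288 CPM, a ratio of 1.40 [1.14, 1.73]. In B-like cells it was at 106 and 72.8 CPM, a ratio of 0.689 [0.367, 1.21], and in ILC2-like cells, too few to be compared, at 158 and 129 CPM, and both of these intervals held 1. By cluster, the T-like cells led by Foxp3, the regulatory T cell factor, had 326 and 484 CPM (ratio 1.48 [1.34, 1.64]). Those led by Cd40lg had 207 and 248 CPM (ratio 1.20 [1.01, 1.42]), and those led by Cd8a had 244 and 174 CPM (1.40-fold lower [1.10, 1.81]). Pycard therefore lay on opposite sides of the placebo level in Foxp3-led and Cd8a-led cells, a difference that was not tested.

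The wider pathway was read in lists of related genes. Their counts in monocyte/macrophage-like cells stand beside 5.96% of all 12234 genes tested that were higher and 8.03% that were lower. In monocyte/macrophage-like cells the other Toll-like receptors had 0 of 6 tested genes past 1.5-fold and a median log2 ratio of -0.02, with Tlr13, an endosomal receptor for bacterial RNA, at 45.2 and 40.1 CPM. Ligand delivery and receptor trafficking had 0 higher and 1 lower of 12 and a median of 0.24. The lower gene was the scavenger receptor Cd36 (76.7 and 49.2 CPM), and Cd14, the lipopolysaccharide co-receptor, was at 923 and 1236 CPM. Adaptors and kinases had 0 higher and 4 lower of 22 and a median of -0.23, the lower genes being the signalling proteins Traf3 (34.3 and 21.9 CPM) and Ripk2 (33.4 and 21.3 CPM) and, outside the rule for named genes, Tab3 (7.52 and 4.56 CPM) and Ticam1 (17.8 and 11.6 CPM). Ticam1 encodes TRIF, the adaptor of Tlr3. Transcription factors had 0 higher and 1 lower of 11 and a median of -0.22. That gene was Nfkb1, an NF-kappaB subunit, at 245 and 163 CPM.

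Target and effector lists went both ways in the same cells. Toll-like receptor target genes had 3 higher and 4 lower of 21 and a median of -0.17. Cxcl3, a neutrophil-attracting chemokine, was at 334 and 69.2 CPM, and the cytokine genes Il1a (24.5 and 10.5 CPM) and Il6 (38.2 and 19.2 CPM) were also lower. So was Nos2 at 2.58 and 0.487 CPM (24 and 11 UMIs). The higher genes were Ccrl2 (78.7 and 145 CPM), Saa3 (11.0 and 20.7 CPM) and the chemokine Ccl5 (14.2 and 21.8 CPM). Nos2, Saa3 and Ccl5 were named after their values were seen. Brakes of the pathway had 1 higher and 2 lower of 18 and a median of -0.10, with Socs1 at 43.8 and 19.4 CPM, Tnip1 at 54.0 and 32.0 CPM and Il10 at 0.966 and 4.83 CPM. Other inflammasome sensors had 0 higher and 1 lower of 14 (median -0.16), the lower one being Naip1 on 19 and 21 UMIs, and regulators and effectors 0 higher and 1 lower of 19 (median -0.06), the lower gene being the interleukin-1 receptor antagonist Il1rn at 246 and 102 CPM. Il1b, the substrate of Casp1, was at 2038 and 1786 CPM.

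In neutrophil-like cells several signalling lists had medians below that of all genes, -0.047, and so they did in some other classes. Adaptors and kinases had 0 higher and 8 lower of 16 (median -0.50). Transcription factors had 0 and 5 of 10 (median -0.64) and brakes 0 and 7 of 14 (median -0.50). Over all genes tested in neutrophil-like cells, 15.2% were higher and 19.9% lower. Named after their values were seen, the NF-kappaB subunits Nfkb1 (266 and 124 CPM), Nfkb2 (113 and 61.2 CPM), Rela (155 and 74.5 CPM) and Relb (67.6 and 30.6 CPM) were each past 1.5-fold lower, as was the stress-induced factor Atf3 (852 and 428 CPM). The same held for Irak2 (198 and 91.7 CPM), a kinase that joins Myd88, and Nfkbia (5300.3 and 3356 CPM), the NF-kappaB inhibitor. Target genes had 5 higher and 7 lower of 17 (median -0.38), the higher ones being Cxcl1, Cxcl3, Ifit1, Cd86 and Saa3. Cxcl3 was at 1098 and 1988 CPM here, the opposite direction to monocyte/macrophage-like cells, a difference that was not tested. In cDC1-like cells brakes had 0 higher and 9 lower of 16 (median -0.53) and target genes 1 and 7 of 12 (median -0.73). Over all genes tested there, 7.45% were higher and 11.9% lower. NK-like cells had 0 higher and 6 lower of 12 adaptors and kinases (median -0.45) and 1 and 4 of 10 transcription factors (median -0.39). Of all genes tested in NK-like cells, 7.88% were higher and 18.3% lower. Back in neutrophil-like cells, Tnf was at 444 and 236 CPM, whereas Il1b was at 20135 and 22587 CPM and Cxcl2 at 33916 and 32344 CPM. The part of the shift in finer clusters in all of these values was not tested.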

How the data were processed

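The authors deposited raw UMI counts per feature and barcode, 1 matrix per library, made with Cell Ranger 3.1.0 on mm10, per the submitters' processing notes. Barcodes with under 200 genes were dropped, then the highest Scrublet scores at 0.8% per 1000 barcodes (97 placebo and 266 E2 barcodes; the automatic threshold marked 0.0856% and 1.49%). Clustering used scanpy 1.11.5 on 2000 variable genes without the members, 30 components, 15 neighbours and Leiden resolution 1, giving 30 clusters. A cluster took a class name when at least 60% of its cells passed a marker gate and at least 70% of those one class, or else from at least 3 leading markers. This naming rule replaced one that had left the Arg1 cluster without a name and called a mixed cycling cluster cDC1; it was set after that result but before member values were seen. UMIs were summed per class and library as CPM. Ratios have exact conditional binomial intervals, levels exact Poisson and shares exact Clopper-Pearson intervals, all at 95%, and log2 ratios add 10 CPM. Intervals were tested on simulated data. Members, lists and markers were chosen with earlier results of these data known. Named genes are the 10 members, the 3 most correlated genes of each with at least 100 UMIs, and the up to 4 genes of largest ratio and the most abundant gene of each list in monocyte/macrophage-like cells; others are said to be named after their values were seen. Acod1, Gsdme and Irgb10 were not found under those symbols. Other symbols for them were not searched, so the lists leave these genes out whether or not they were measured.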

Additional observations from a re-analysis of the deposited data

Results flagged for a closer look

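Nlrp3 went in opposite directions in 2 classes under the same contrast. Its log2 ratio of E2 to placebo was 2.06 in mast cell-like cells (76.3 and 351 CPM) and -0.53 in cDC1-like cells (46.0 and 28.9 CPM), each with a counting interval on its own side of 0. The difference between the 2 classes was not tested, since each treatment has 1 library. The cDC1-like value was -0.17 without the 1 placebo cell that held 97.4% of the neutrophil-marker UMIs of that class, and the mast cell-like value stayed between 1.93 and 2.19 over 9 alternative settings.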

How the results depend on the processing

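Of 840 recomputed ratios over the 9 classes and 12 alternatives, 731 stayed inside the counting interval of the reported ratio, 109 moved outside it and 0 members past 1.5-fold changed direction. The 840 include ratios of members with under 30 UMIs in a class. Their intervals can be very wide, such as 0.0617 to 40.3 for Tlr2 in mast cell-like cells, so staying inside says little for those members. In monocyte/macrophage-like cells, per-cell marker gates in place of clusters gave log2 ratios of -0.47 for Tlr2 and 0.01 for Pycard. Median ratio scaling gave -0.30 and 0.18, and equal weights for clusters -0.24 and 0.03. Weighting cells alike gave -0.30 for Tlr2. A pseudocount of 1 gave 0.63 for Tlr3 and 0.28 for Tlr9. Thinning to 2000 UMIs gave 0.38 for Tlr3, -0.01 for Tlr7, 0.25 for Tlr9 and -0.42 for Myd88. Without the Arg1 cluster, an alternative chosen after seeing the data, the values were -0.19 for Tlr2, 0.31 for Nlrp3 and -0.02 for Pycard. The cause was not tested. Leaving out shared barcodes and, in cDC1-like cells, 1 cell rich in neutrophil markers were also chosen after seeing the data. With no filter on low counts, 4614 in place of 729 genes were higher and 3973 in place of 983 lower in these cells, through genes of few UMIs. No paired analysis was possible because each treatment has 1 library. Depth limits Tlr9 in every class, and Tlr3, Casp1 and Casp4 in mast cell-like cells.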
